A study of Mus musculus with 8 samples.

Results

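CpG-dense sites whose methylation is neither low nor high were described in hepatocytes of young and mid-aged mice. The sites were chosen by measured values. With the strands of a CpG summed, a member lay on chromosomes 1 to 19, had 5 or more reads in each of 8 mice, had 10 or more other covered CpGs within 100 bases, and had an unweighted mean methylation of 20 to 80% over all 8 mice. The rule found 12634 members among 874644 tested CpGs. They made up 3.49% of the 361866 dense CpGs, of which 330393 had a mean under 20% and 18839 a mean over 80%. The mean over all mice that chose them took no account of age, but it was drawn from the same values as the age comparison. A CpG could therefore enter because 1 age lay outside the range.

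The samples were hepatocytes from livers of female C57Bl6/J mice, isolated by perfusion, from 4 mid-aged animals (40 weeks) and 4 young animals (10 weeks) on a control diet, with 1 library of reduced representation bisulfite sequencing (RRBS) for each mouse. Bisulfite converts unmethylated cytosine, and the enzyme MspI, which cuts at CCGG, steers the reads to CpG-rich DNA. The comparison asks how methylation of the same genotype differs between the ages. Libraries held 84639955 to 118395064 reads over CpGs in mid-aged and 46321447 to 72710972 in young mice, so the groups did not overlap in depth. Other differences between libraries that go with depth cannot be told apart from age. The thinning used below evens out only the number of reads, with members kept as chosen at full depth. Members had a median of 88.5 reads per mid-aged and 46.2 per young mouse, and the lowest median, 26.0 reads, was that of young mouse 1. Methylation between mice correlated across the members with Pearson's r of 0.517 to 0.873 (28 pairs of mice, which share the same CpGs).

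In mammals, DNA methylation is placed mostly at CpGs, and clusters of CpGs known as CpG islands, which often hold promoters, usually stay unmethylated. Dense CpGs with intermediate values are known from imprinted control regions, where the allele of one parent is methylated, from clustered protocadherins, where the choice of promoter differs between cells, and from the borders of islands. A percentage of methylated reads averages over cells and alleles, so methylation of one allele in all cells cannot be told apart here from methylation of both alleles in part of the cells.

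Member-rich stretches at 8 genes show what such sites look like in the RefSeq reference sequence (GRCm38, the build called mm10 in the labels, plus strand, with the CpGs that are members in capitals and all other bases in lower case). A block was a run of 3 or more consecutive tested members with at most 100 bases between neighbours, and it is placed in a gene part by its midpoint. The first 4 blocks are in genes whose blocks were called higher in mid-aged mice, the fifth is the block with the most CpGs called lower together with that of Bahcc1, the next 2 are in imprinted genes, and the last is the block with the most members.
Mapk15, chr15:75997714-75997971, coding exon 10 and the introns beside it, 21 members: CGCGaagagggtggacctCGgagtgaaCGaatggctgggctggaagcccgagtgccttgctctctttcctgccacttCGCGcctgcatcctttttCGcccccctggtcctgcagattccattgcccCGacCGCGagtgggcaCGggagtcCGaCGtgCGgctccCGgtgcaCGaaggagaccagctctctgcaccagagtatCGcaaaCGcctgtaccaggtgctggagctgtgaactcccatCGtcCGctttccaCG
Cyp26c1, chr19:37692925-37693003, coding exon 6 from its junction with the intron, 6 members: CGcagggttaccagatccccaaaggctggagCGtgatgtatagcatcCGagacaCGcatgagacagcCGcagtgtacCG
C1ql3, chr2:13010251-13010320, coding exon 1 up to its junction with the intron, 6 members: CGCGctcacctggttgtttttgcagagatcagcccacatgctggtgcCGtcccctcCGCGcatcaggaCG
Rfx4, chr10:84760324-84760420, intron 1, 4 members: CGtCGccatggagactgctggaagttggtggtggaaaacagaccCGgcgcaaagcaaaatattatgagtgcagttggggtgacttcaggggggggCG
Rhobtb1, chr10:69248801-69248881, coding exon 3, 11 members: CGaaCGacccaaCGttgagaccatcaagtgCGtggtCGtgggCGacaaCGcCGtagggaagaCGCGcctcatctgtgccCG
Grb10, chr11:12025628-12025804, intron 1, 16 members: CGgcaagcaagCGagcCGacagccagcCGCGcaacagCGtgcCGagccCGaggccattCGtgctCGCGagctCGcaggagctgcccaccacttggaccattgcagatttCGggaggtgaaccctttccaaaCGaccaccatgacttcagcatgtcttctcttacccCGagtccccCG
Gnas, chr2:174299550-174299849, the first 300 of 581 bases with 21 of 41 members: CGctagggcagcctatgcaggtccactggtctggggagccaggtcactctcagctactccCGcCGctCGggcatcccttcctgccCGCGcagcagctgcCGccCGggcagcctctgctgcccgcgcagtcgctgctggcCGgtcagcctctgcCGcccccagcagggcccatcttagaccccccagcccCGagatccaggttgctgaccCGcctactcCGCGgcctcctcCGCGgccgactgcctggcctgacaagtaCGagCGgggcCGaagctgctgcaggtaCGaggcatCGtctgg
Snx20, chr8:88627397-88627696, the first 300 of 405 bases with 46 of 56 members: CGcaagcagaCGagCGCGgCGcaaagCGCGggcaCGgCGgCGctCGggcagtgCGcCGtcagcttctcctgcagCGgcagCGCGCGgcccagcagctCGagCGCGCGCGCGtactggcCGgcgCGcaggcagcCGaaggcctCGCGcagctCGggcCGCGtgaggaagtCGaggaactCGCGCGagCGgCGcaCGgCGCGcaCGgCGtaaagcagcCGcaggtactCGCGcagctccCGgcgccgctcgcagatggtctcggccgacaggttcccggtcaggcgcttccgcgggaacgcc

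Members differed from the low dense CpGs in where they lay. Of the members, 33.4% were in a promoter (from 1500 bases before a transcript's start to 500 bases after it), 44.2% in an exon outside promoters, 14.3% in an intron and 8.14% between genes. For dense CpGs under 20% methylation the promoter share was 79.2%, and for dense CpGs over 80% it was 15.1%. The median distance to the nearest start site was 1960 bases for members, 221 bases for low dense CpGs and 7250 bases for high dense CpGs. Members sat between these classes in base composition as well, with a median GC content of 65.2% against 69.2% and 62.2%, and a ratio of observed to expected CpGs of 0.773 against 0.904 and 0.734. Soft-masked repeats held 2.80% of members.

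Many members lay near a change of methylation along the DNA. A tested CpG under 20% was within 500 bases of 59.8% of members, one over 80% within 500 bases of 53.3%, both within 500 bases of 22.2%, and neither within 500 bases of 9.10%. The median distance was 122 bases to the nearest low CpG and 375 bases to the nearest high CpG. In all, 7428 members (58.8%) fell into 1232 blocks with a median length of 46 bases, of which 599 blocks held 5 or more members. Within these 599 blocks the highest and the lowest CpG mean differed by a median of 31.9 percentage points, and 288 of the blocks had a mean of 40 to 60%.

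The values of the members spread over the whole range that the rule allows. A mean of 20 to 35% was found for 4490 members, 35 to 50% for 2659, 50 to 65% for 2488 and 65 to 80% for 2997. The share in promoters went from 40.5% in the lowest of these ranges to 25.5% in the highest. Only 4628 members (36.6%) were within 20 to 80% in each of the 8 mice. Near the bounds, the 426 dense CpGs from 20 to 21% had a median age difference of 2.44 points and the 459 from 19 up to 20% one of 1.53 points, while the 250 from 79 to 80% had 0.375 points and the 259 from above 80 to 81% had 0.585 points. The 2191 members with exactly 10 neighbours had a median difference of 1.02 points, and the 2801 CpGs of the same range of means with 9 neighbours had 0.424 points.

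Mean methylation of the members was 48.3, 48.0, 48.3 and 48.1% in mid-aged mice 1 to 4 and 47.8, 46.0, 44.9 and 44.1% in young mice 1 to 4. All mid-aged mice were above all young mice, but young mouse 1, the shallowest library, lay close to the mid-aged group. On a sequence named L, which the sources used here do not describe, 6 of 147 reads were methylated in young mouse 1 and 16 of 449 in mid-aged mouse 1, against 0 to 3 methylated reads in each of the other 6 libraries, and the part of this in the result was not tested. The group means were 48.2% ± 0.162 and 45.7% ± 1.63 (SD, n = 4 each), a difference of 2.47 percentage points. The two-sided exact permutation test gave p = 0.0286, the smallest that 4 against 4 mice allow, and 0.0857 after Benjamini-Hochberg adjustment over the 3 comparisons of class means, so the difference did not pass the threshold of 0.05. With all libraries thinned to 35775546 reads over tested CpGs the difference was 2.38 points and the adjusted p of the exact test was 0.0429, and without young mouse 1 they were 3.18 points and 0.0286. With all reads of the members pooled in each mouse the difference was 1.84 points (adjusted p of the exact test 0.143). With means of 30 to 70% it was 2.79 points and without mid-aged mouse 1 or 3 it was 2.41 or 2.44 points, each with an adjusted p of 0.114 by the exact test.

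**Figure D1:**
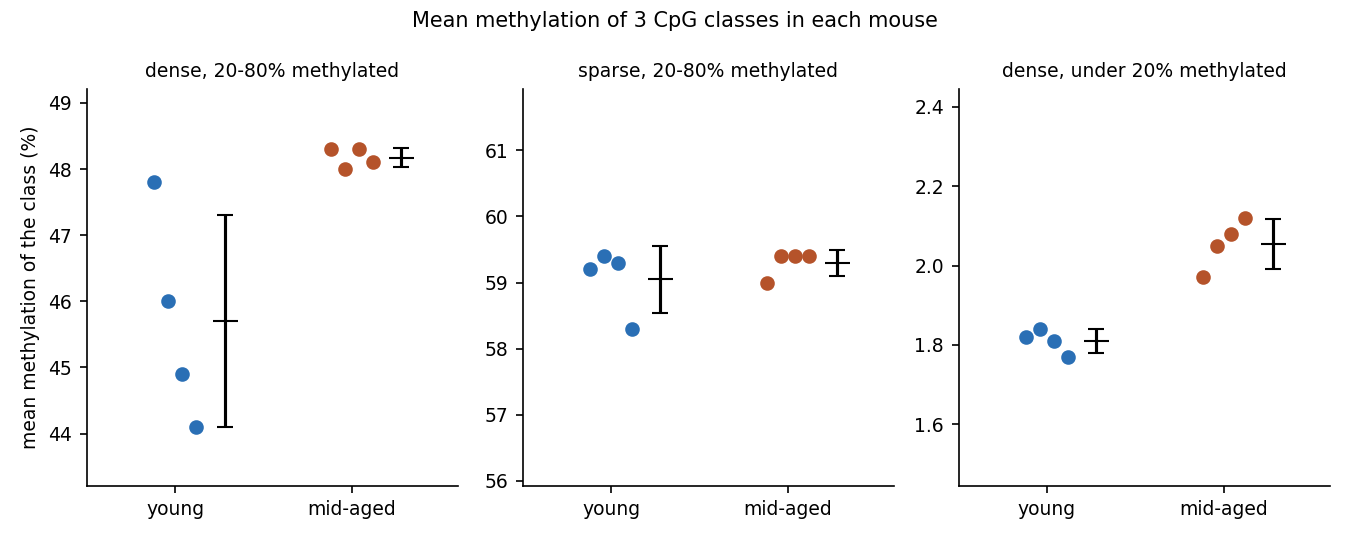
Each point is the mean methylation (%) of 1 class of CpGs in 1 mouse, with the group mean and SD (n = 4) beside the points, on a separate vertical scale for each class that does not start at 0. Dense CpGs of 20 to 80% were at 48.0 to 48.3% in mid-aged and 44.1 to 47.8% in young mice, sparse CpGs of the same range of means overlapped between the ages, and dense CpGs under 20% were at 1.97 to 2.12% in mid-aged and 1.77 to 1.84% in young mice.

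The other classes put this difference in context. Sparse CpGs of 20 to 80% (4 or fewer neighbours within 100 bases) had 59.3% ± 0.188 in mid-aged and 59.0% ± 0.495 in young mice, and dense low CpGs had 2.05% ± 0.0627 and 1.81% ± 0.0288 (SD, n = 4 each), where all mid-aged mice (1.97 to 2.12%) were above all young mice (1.77 to 1.84%). The value of the members minus that of the sparse class was 2.20 points higher in mid-aged mice, and the value of the members minus that of the dense low class was 2.22 points higher. Both comparisons gave p = 0.0857 by the two-sided exact permutation test, before and after adjustment. Across members, 59.9% of the single differences were above 0 and their median was 2.17 points, against 53.8% and 0.214 points over all tested CpGs.

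**Figure D2:**
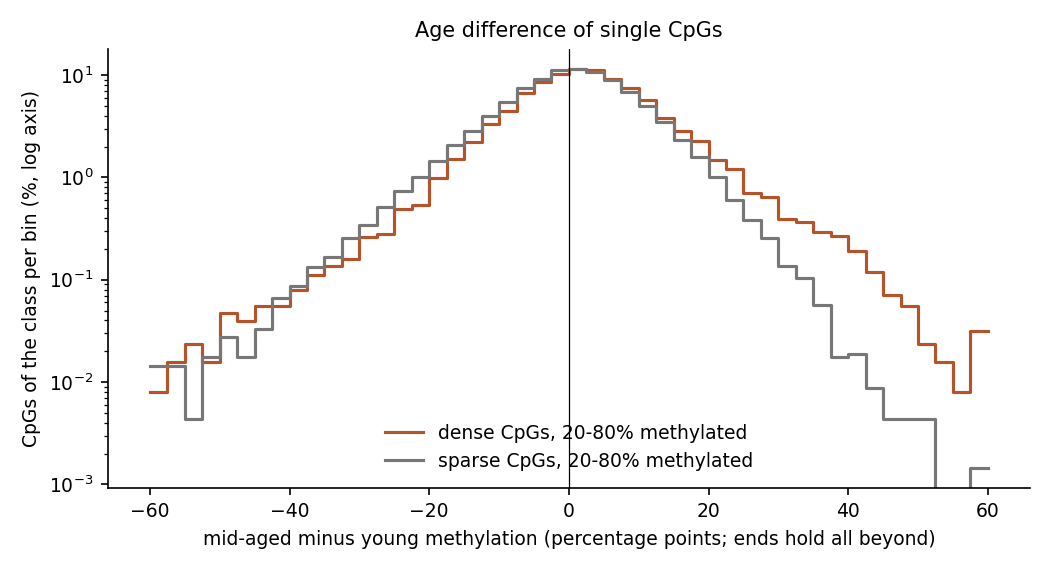
The horizontal axis is mid-aged minus young methylation of a CpG in percentage points, in bins of 2.5 points, and the vertical axis, which is logarithmic, is the share of the class in each bin (%). The line of dense CpGs of 20 to 80% lies below that of sparse CpGs of the same range at falls of up to 42.5 points (0.538% against 1.01% between -22.5 and -20.0) and above it at gains over 2.5 points (0.704% against 0.383% between 25.0 and 27.5). On the log axis the gap is widest at gains over 25 points, a size that 402 members reached against 162 members with a fall of 25 points or more.

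Single CpGs were tested by a quasi-binomial model of the methylated reads over all tested CpGs. Of the members, 312 (2.47%) were called higher in mid-aged mice, where 0.0630% of all tested CpGs were, and 57 (0.451%) were called lower, where 0.103% of all tested CpGs were. Called CpGs had an adjusted p under 0.05, group means 5 or more points apart and a variance of the methylated fraction under 0.05 in both ages. Sparse CpGs of the same range of means went the other way in number, with 63 of 69111 called higher (0.0912%) and 405 called lower (0.586%). The CpGs of middle density (5 to 9 neighbours) in this range gave 64 higher and 308 lower of 30356. Among dense low CpGs, 68 of 330393 were called higher (0.0206%) and 21 lower (0.00636%), so higher calls outnumbered lower ones there too. Dense high CpGs gave 14 higher and 9 lower of 18839. Called members that were higher went from an average of 32.7% in young to 63.7% in mid-aged mice, with a median gain of 30.4 points. Called members that were lower went from 72.3% to 35.1%, and their median methylation fell by 36.9 points.

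The calls were gathered in few places, where neighbouring CpGs share reads and are not independent. The 312 CpGs called higher lay at 57 genes and the 57 called lower at 24 genes, with 0 genes in both sets. Mapk15, Usp49, Cyp26c1, C1ql3 and Hapln4 together held 142 of the 312. A CpG could become a member because one age was outside the range, and 953 members had a young mean under 20% while 503 had a mid-aged mean over 80%. Among the 10369 members (82.1%) with both group means within 20 to 80%, 196 were called higher and 28 lower, and the median difference was 1.63 points. Members between genes (8.14% of members) held 1 of the 312 calls, and those in exons (44.2%) held 194. As the calls came from few genes and neighbours share reads, these counts are not independent. No preference for a gene part was tested.

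The count of single calls depended on the test. With limma on M values (log2 ratios of methylated to unmethylated reads, 1 read added to both), 11 members were called higher and 1 lower. Leaving out 1 mouse at a time gave 196 to 445 calls of higher and 19 to 87 calls of lower methylation, and single libraries moved these counts. Higher calls were 198 and 196 without mid-aged mice 2 and 3, and lower calls were 36, 21, 31 and 19 without mid-aged mice 1 to 4 and 87 without young mouse 1.

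At the level of blocks, limma was fitted to the block means of all 84191 blocks of all classes. Of the 1232 member blocks, 7 were called higher in mid-aged mice (0.568%), where 0.0178% of all blocks were, and 0 were called lower, where 0.00713% were. Dense low blocks likewise gave 7 calls of higher and 0 of lower methylation, among 21057 blocks (0.0332% higher). At an unadjusted p under 0.05, 155 member blocks were higher and 39 lower. Such blocks were not counted over all 84191 blocks, so these counts have no share to be set against. Mid-aged and young mice did not overlap in 161 member blocks that were higher (13.1%, against 3.48% of all blocks) and in 38 that were lower (3.08%, against 1.74%). On the logit scale of pooled reads, limma called 26 member blocks higher and 3 lower. Without any 1 of the 8 mice, limma called 0 member blocks, with 148 to 206 at an unadjusted p under 0.05. Each of the 7 calls among members thus rests on all mice being present. The differences themselves moved little, to 36.3 to 38.6 points for the Cyp26c1 block of 6 members and 37.5 to 40.0 points for that of C1ql3.

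The called block of Mapk15, which encodes an atypical mitogen-activated protein kinase, held 21 members in and around coding exon 10, and all 21 were called higher as single CpGs. Its values were 67.7, 67.2, 65.6 and 68.8% in mid-aged mice 1 to 4 and 26.7, 28.5, 26.5 and 24.5% in young mice 1 to 4. The groups were far apart and the spread within them was among the 3 smallest of member blocks with 5 or more members, with a difference of 40.8 ± 4.22 points (SE) and an adjusted p of 0.0389 by limma. It remained at 40.1 to 41.4 points without any 1 mouse, with adjusted p of 0.102 to 0.174. Along the block printed above, CpG means ran from 36.1 to 83.1% in mid-aged and from 6.47 to 60.5% in young mice. A second block of Mapk15, in exon 14 at chr15:75998711-75998950 and named here after its values were seen, had 61.8% ± 2.83 and 25.7% ± 3.70 (SD, n = 4 each, adjusted p = 0.0664 by limma), and 14 of its 20 members were called.

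Cyp26c1 encodes a cytochrome P450 that breaks down retinoic acid, a developmental signal. Its called block of 6 members at the start of the last exon had 85.4, 80.6, 86.0 and 82.7% in mid-aged mice and 44.4, 45.8, 45.1 and 50.9% in young mice. The groups did not overlap, and the difference was 37.1 ± 3.34 points (SE, adjusted p = 0.0339 by limma). The gene had 6 blocks with 29 members in all, of which 26 were called as single CpGs, and in each of the 6 blocks every mid-aged mouse was above every young mouse. Their mean differences ran from 26.7 to 39.2 points. Cyp26b1, a related enzyme of the same pathway, had a block of 12 members in coding exon 7 (chr6:84574490-84574617), where 42.3% ± 6.07 of the mid-aged and 44.8% ± 5.80 of the young group (SD, n = 4 each) overlapped.

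C1ql3 codes for a C1q-like protein that neurons secrete at synapses. It had the third called block of 5 or more members, at the end of coding exon 1. Methylation was 65.8, 62.8, 58.1 and 61.9% in mid-aged mice and 23.5, 22.7, 25.8 and 21.9% in young mice. The difference was 38.7 ± 4.37 points (SE, adjusted p = 0.0445 by limma), and all 6 members were called. The other 4 called blocks had 3 or 4 members and are named after their values were seen. They were a second block of C1ql3, the one in intron 1 of Rfx4, which encodes a transcription factor of the RFX family, and 2 more blocks of Cyp26c1. Rfx4 had the widest gap of these genes, with 63.8, 77.9, 72.3 and 68.6% in mid-aged and 11.2, 21.2, 10.2 and 16.5% in young mice.

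Blocks that did not pass the block test are given by their values. Ptk7, a receptor-like pseudokinase of planar cell polarity, had the smallest spread between mice of all blocks with 5 or more members, with 48.6% ± 0.718 for the mid-aged and 18.6% ± 1.36 for the young group (SD, n = 4 each) in intron 1 (chr17:46628761-46628878, adjusted p = 0.0597 by limma). Its 7 members had a median of only 16 reads in young and 72 in mid-aged mice. The third of the least variable blocks, at Gse1 (chr8:120229927-120230030), had 44.7, 45.7, 44.9 and 42.6% in mid-aged and 31.4, 31.6, 32.2 and 35.5% in young mice. Chosen after their values were seen, as blocks with the most single CpGs called higher, were those of Hapln4 (a hyaluronan link protein), Usp49 (a deubiquitinase), Phospho1 (a phosphatase of bone mineralization), Gata6 (a transcription factor of endoderm), Ildr2 and Msl3l2.

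For the Hapln4 block of 21 members in coding exon 5 (chr8:70088173-70088345), mid-aged mice had 54.7, 59.9, 63.3 and 60.6% and young mice 27.3, 31.7, 12.1 and 23.9% (adjusted p = 0.118 by limma). For Usp49 (19 members, coding exon 3), mid-aged mice had 61.6, 64.2, 59.1 and 64.0% and young mice 38.0, 37.2, 37.5 and 42.8% (adjusted p = 0.168 by limma). For Gata6 (13 members, coding exon 2), mid-aged mice had 63.0, 56.6, 64.1 and 54.8% and young mice 49.9, 30.8, 36.5 and 35.4% (adjusted p = 0.378 by limma). In all 3 blocks the groups did not overlap, and 17, 17 and 9 single CpGs were called higher. Phospho1 had 67.4% ± 4.41 and 41.3% ± 5.50, Ildr2 50.0% ± 9.62 and 28.2% ± 3.88, and Msl3l2 66.9% ± 1.93 and 50.6% ± 5.59 (SD, n = 4 each, mid-aged first).

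Members with lower methylation in mid-aged mice were found at other genes, also chosen after their values were seen. Rhobtb1 had 22.9, 24.0, 29.7 and 19.8% in mid-aged and 54.2, 72.3, 65.2 and 64.0% in young mice in its block of 11 members (adjusted p = 0.0775 by limma). The groups were separate, the difference was -39.8 ± 5.42 points (SE), and 6 of the 11 members were called lower. Bahcc1, a chromatin protein with a BAH domain, had 42.5% ± 2.40 in mid-aged and 74.3% ± 7.98 in young mice in intron 14 (chr11:120280543, 9 members, 6 called lower). Sirt7, a nuclear sirtuin, had 46.7% ± 9.07 and 82.6% ± 6.20, and Nlrp6, an inflammasome sensor, had 35.5% ± 5.38 and 60.4% ± 6.50 (SD, n = 4 each). The block beside the pseudogene Ptges3-ps had 39.6% ± 16.1 and 74.8% ± 11.6, and its reads may be shared with the parent gene, which was not tested.

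**Figure D3:**
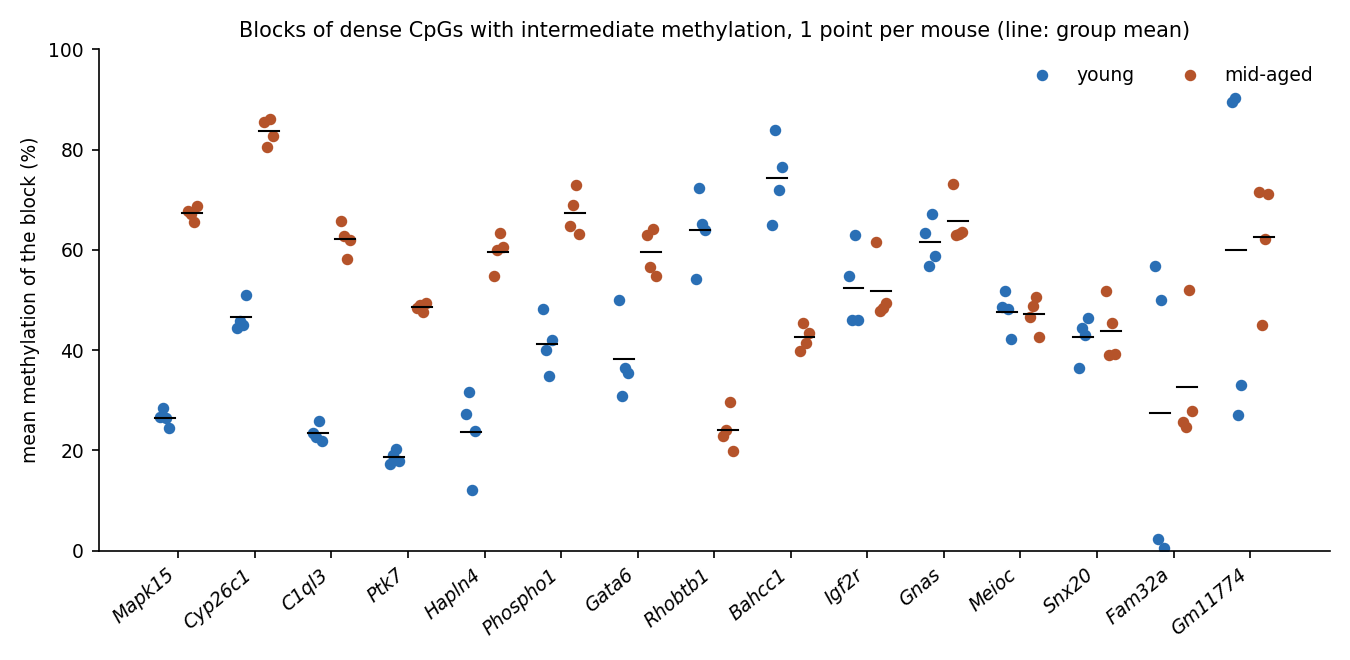
Each point is the mean methylation (%) of a block of members in 1 mouse (young left, mid-aged right of each gene, line at the group mean). Blocks from Mapk15 to Gata6 were higher and those of Rhobtb1 and Bahcc1 lower in all mid-aged than in all young mice, the groups overlapped from Igf2r to Snx20, and single mice stood far apart at Fam32a and Gm11774.

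**Figure D4:**
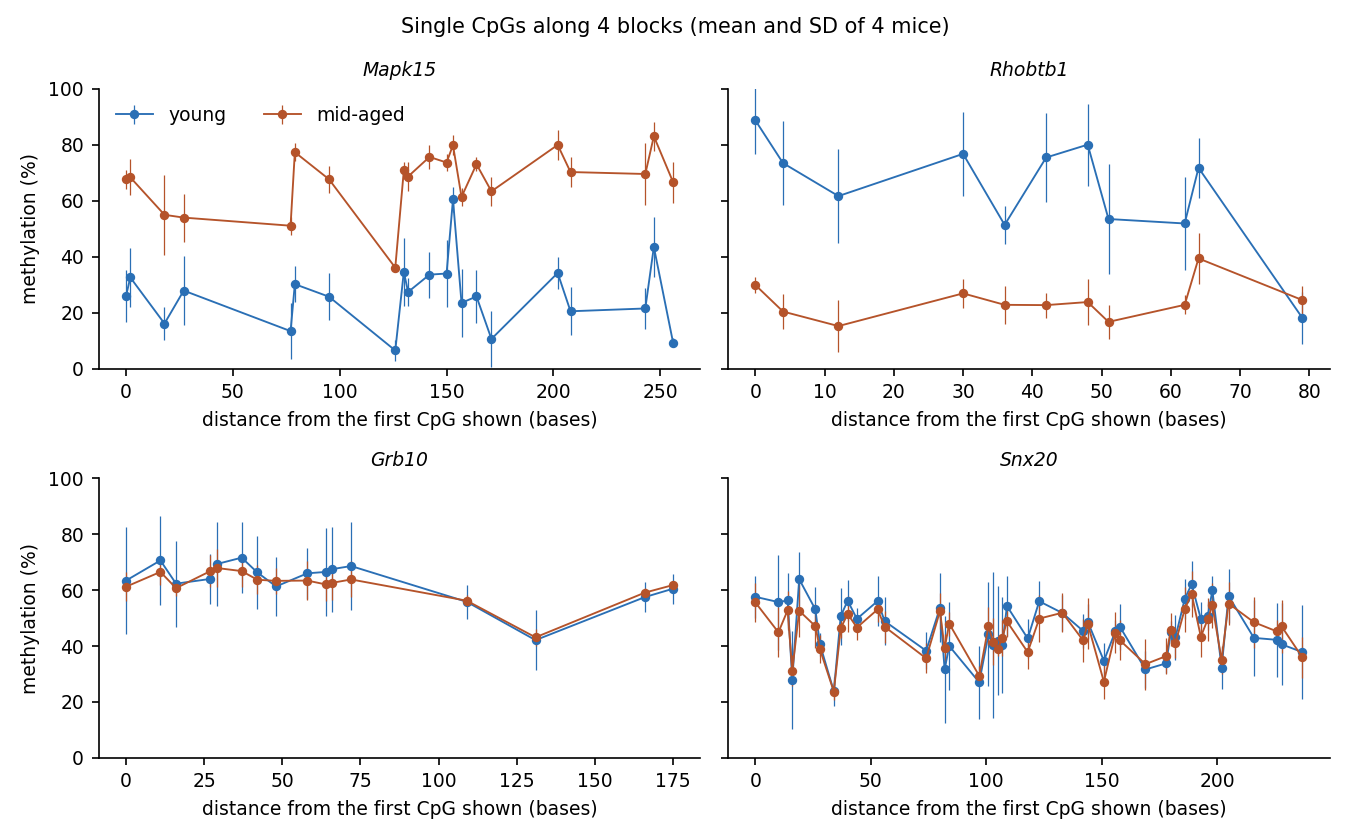
Methylation (%) of single members is plotted against the distance in bases from the first CpG shown, as mean and SD of 4 mice per age. In Mapk15 the mid-aged line was above the young line at every CpG, in Rhobtb1 it was below at all but the last, and in Grb10 and Snx20 the lines ran together while neighbouring CpGs rose and fell alike in both ages.

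Imprinted genes held the highest share of members among 12 gene lists. Of 1208 dense CpGs in 41 imprinted genes and control regions, 625 (51.7%) were members, against 3.49% of all dense CpGs. Their mean was 54.1%. None of the 625 was called in either direction by limma on M values or by the quasi-binomial test (over all members 2.47% higher and 0.451% lower). At an unadjusted p under 0.05, 40 were higher and 39 lower, where 2611 of all 12634 members were under 0.05. Over all 874644 tested CpGs, 79945 were under 0.05. The median difference was 0.111 points. The per-mouse means ran from 52.4 to 56.7% in mid-aged and from 51.2 to 59.2% in young mice, so the ages overlapped. In the 38 imprinted blocks with 5 or more members, the median block mean was 57.7% (lowest 26.4%, highest 71.1%), and the median pooled SD between mice was 7.38 points, against 6.14 points in the other blocks of this size.

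Gnas, the locus of the stimulatory G protein alpha subunit and several imprinted transcripts, held 150 members in 12 blocks. The largest, with 41 members about 1981 bases from an annotated start site, had 73.1, 62.9, 63.2 and 63.6% in mid-aged and 63.3, 56.7, 67.1 and 58.8% in young mice. Igf2r, the receptor that clears insulin-like growth factor 2, had 37 members at its first exon (chr17:12769333-12769673) with 61.5, 47.9, 48.4 and 49.3% and 54.8, 46.1, 62.9 and 46.0%. In both of these blocks the ages overlapped, but in 2 of the 5 Igf2r blocks they did not. The imprinted list had 60 blocks. Among the blocks of its genes with a block of 5 or more members, 1 was higher and 2 were lower in mid-aged mice without overlap. The shares without overlap over all member blocks were 13.1% higher and 3.08% lower. Zrsr1, an imprinted retrogene, had 39.9% ± 4.38 and 43.7% ± 6.87 over 34 members of its 5' untranslated region (SD, n = 4 each). Grb10, an adaptor that restrains insulin signalling, had 61.0% ± 3.41 and 64.9% ± 7.39 over 59 members in 5 blocks, and Cdkn1c, an inhibitor of cyclin-dependent kinases, had 38.1% ± 3.98 and 33.4% ± 1.90 over 55 members in 9 blocks (both genes chosen after their values were seen).

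The hexamer TGCCGC, searched on both strands, is the sequence that the zinc finger protein ZFP57 recognizes at imprinted control regions when its CpG is methylated. Of the 625 members in imprinted genes, the CpG of 28 (4.48%) lay in this hexamer. The share was 1.72% for the 583 other dense CpGs of these genes, 1.22% for the 12009 members elsewhere, 1.40% for dense low CpGs and 1.59% for dense high CpGs. These are counts of letters in the reference and say nothing on binding.

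Clustered protocadherins, the cell-surface proteins of neuronal identity that lie in tandem on chromosome 18, came next. Of their 250 dense CpGs 100 (40.0%) were members, at 37 genes. None was called by limma on M values or by the quasi-binomial test (over all members 2.47% higher and 0.451% lower). At these shares a list of 100 members would hold few calls. At an unadjusted p under 0.05, 10 were higher and 5 lower, where 2611 of all 12634 members were under 0.05. The block at Pcdhgb5 (15 members) had 52.4% ± 6.68 in mid-aged and 44.1% ± 10.0 in young mice, and Pcdha1 (5 members) had 51.0% ± 3.85 and 50.2% ± 6.62. The block at Pcdhgc5 (6 members) had 40.0% ± 6.68 and 32.8% ± 8.89 (SD, n = 4 each). The genes of this cluster overlap one another, so a block belongs to several of them.

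Germline and pluripotency genes, which are usually methylated and silent in somatic cells, held 128 members among 559 dense CpGs (22.9%) at 21 genes. None was called by limma on M values or by the quasi-binomial test (over all members 2.47% higher and 0.451% lower). At an unadjusted p under 0.05, 3 were higher and 3 lower, where 2611 of all 12634 members were under 0.05. Meioc, a meiosis-specific gene, had 46.7, 48.7, 50.6 and 42.7% in mid-aged and 48.5, 51.7, 48.1 and 42.2% in young mice over 21 members at its start. Its coding exon 2 was similar in level, at 46.7% ± 0.936 and 48.2% ± 3.30. Smc1b, a meiotic cohesin subunit, had 48.0% ± 4.56 in mid-aged mice and a wider spread in young mice, 47.4% ± 16.2 (SD, n = 4 each).

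Developmental genes had calls, which lay at few genes. No difference between lists was tested. Developmental transcription factors had a share of members near that of all dense CpGs (288 of 10914, 2.64%), and 16 of the 288 were called higher and 0 lower by the quasi-binomial test (over all members 2.47% and 0.451%), with 58 higher and 3 lower at an unadjusted p under 0.05 and 0 by limma on M values. The 16 lay at Gata6 (10), Scx (5), a tendon factor, and Meis2 (1), a homeobox factor. The median difference was 3.98 points, against 2.17 points over all members. The per-mouse means were 38.8, 37.5, 39.7 and 38.5% in mid-aged and 34.4, 32.5, 34.0 and 32.3% in young mice, without overlap. Members in genes of Wnt, Hedgehog, Bmp, Fgf and retinoic acid signals (155 of 3070 dense CpGs, 5.05%) had 28 calls of higher and 0 of lower methylation, and all 28 were at Cyp26c1. At an unadjusted p under 0.05, 50 members of this list were higher and 3 lower, and limma on M values called 0. Over all 12634 members, 2611 were under 0.05 before adjustment.

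The blocks named by the rule at Foxa1 and Cdx1 overlapped between the ages. In 2 of 2 blocks of Scx and 2 of 2 of Gata6, counted after values were seen, the ages did not overlap. Foxa1, a pioneer factor of liver, had 56.6% ± 7.66 in mid-aged and 61.8% ± 2.66 in young mice in a block upstream of the gene (chr12:57550332-57550440). Cdx1, a caudal homeobox factor, had 46.9% ± 2.55 and 48.8% ± 3.27 in coding exon 1 (SD, n = 4 each).

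**Figure D5:**
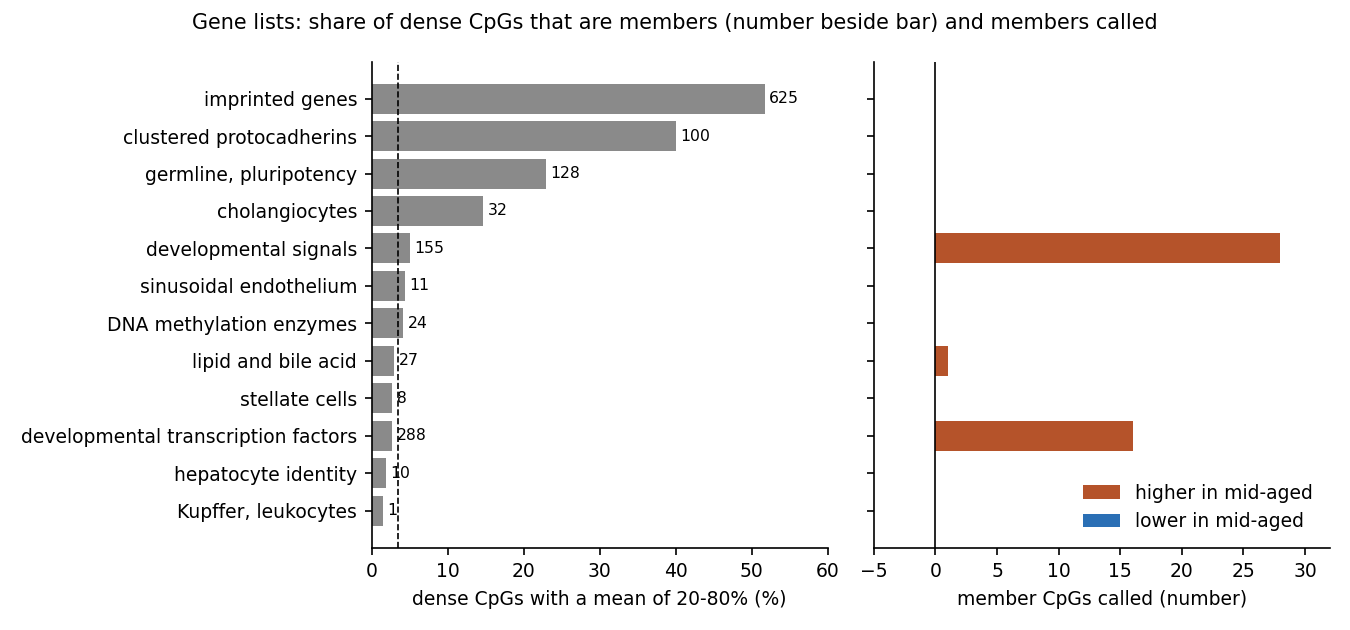
The left panel gives the share of dense CpGs that were members (%) for 12 gene lists, with the number of members beside each bar and the share over all dense CpGs (3.49%) as a dashed line, and the right panel the number of members called in each direction. Imprinted genes (51.7%), protocadherins (40.0%) and germline genes (22.9%) had the highest shares and 0 calls. Developmental signals (28) and developmental transcription factors (16) had nearly all calls within these 12 lists. Over all 12634 members, on a list or not, 312 were called higher and 57 lower.

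Liver lists held few members. Hepatocyte identity genes had 10 members in 541 dense CpGs (1.85%) with 0 calls (over all members 2.47% higher and 0.451% lower). So few members cannot set the list apart by its calls. At an unadjusted p under 0.05, 0 were higher and 2 lower, where 2611 of all 12634 members were under 0.05. Lipid and bile acid genes had 27 members in 926 (2.92%) at 4 genes with 1 call of higher methylation, at Bdh1, an enzyme of ketone bodies, whose block in intron 1 had 54.8% ± 3.65 in mid-aged and 37.8% ± 12.3 in young mice. Srebf1, the regulator of fatty acid synthesis, had 19.0, 38.7, 31.0 and 40.4% in mid-aged and 42.9, 73.1, 64.8 and 66.7% in young mice over 3 members of coding exon 19 (adjusted p = 0.383 by limma). The groups at Srebf1 were separate by a narrow margin. Acacb, an acetyl-CoA carboxylase, had 39.3% ± 12.7 and 21.8% ± 7.41 over 3 members of intron 2 (SD, n = 4 each). Genes of DNA methylation had 24 members (4.17% of 576 dense CpGs) and 0 calls (2 higher and 6 lower at an unadjusted p under 0.05), and the block at Tet3, a 5-methylcytosine dioxygenase, had 43.7% ± 6.10 and 40.6% ± 8.31.

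Markers of other liver cells were followed because a perfusion isolate can hold them. Cholangiocyte genes had 32 members in 218 dense CpGs (14.7%), with 8 higher and 1 lower at an unadjusted p under 0.05. Over all 12634 members, 2611 were under 0.05. None was called by limma on M values or by the quasi-binomial test (over all members 2.47% higher and 0.451% lower). Krt7, a keratin of bile duct cells, had 50.2, 46.4, 44.7 and 54.1% in mid-aged and 39.7, 42.8, 41.4 and 32.6% in young mice, without overlap (12 members, adjusted p = 0.682 by limma). Epcam (39.9% ± 6.95 and 27.4% ± 9.71) and Sox9 (50.3% ± 5.61 and 47.7% ± 6.41) overlapped. Sinusoidal endothelial (11 members), stellate (8) and Kupffer cell or leukocyte genes (1) had 0 calls, and the block at Gata4, on the endothelial list, had 64.1% ± 2.56 and 60.7% ± 4.35 (SD, n = 4 each).

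Promoter means of the marker lists checked the labelled cell type. Hepatocyte promoters (12) averaged 6.47% in the mid-aged and 5.07% in the young group. Those of Kupffer cells and leukocytes were at 51.6% in both (4 promoters), endothelial at 29.1 and 28.1% (9), stellate at 19.8 and 19.3% (12) and cholangiocyte at 21.4 and 21.2% (11). The medians over promoters were 1.59% for hepatocyte, 56.3% for Kupffer cell and leukocyte, 3.93% for endothelial, 8.42% for stellate and 7.28% for cholangiocyte genes, so most endothelial, stellate and cholangiocyte promoters were low too and this check separates the cell types only in part. Cell fractions were not measured, and their part in the age differences was not tested.

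Besides Gnas and Igf2r, the 5 blocks with the most members lay at Snx20, Jph3 and Tbxa2r. Snx20, a sorting nexin of blood cells, had 56 members in coding exon 4 with 51.7, 39.1, 45.5 and 39.3% in mid-aged and 36.4, 44.5, 43.0 and 46.5% in young mice. Jph3, a junctophilin of excitable cells, had 37 members at 51.9% ± 4.84 and 57.5% ± 6.78, and Tbxa2r, the thromboxane receptor, had 36 members at 39.9% ± 0.847 and 38.9% ± 10.1 (SD, n = 4 each). The ages overlapped in all 3 blocks. The adjusted p by limma was 0.971, 0.833 and 0.982 in that order.

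In some blocks the mice of one age differed widely from one another. Fam32a had 56.8, 2.38, 50.0 and 0.461% in young mice 1 to 4, and 25.7, 24.6, 52.0 and 27.9% in mid-aged mice, over 7 members at its first exon (chr8:72219779-72219911). These members had a median of only 8 reads in young and 23 in mid-aged mice. A block between genes, with Gm11774 as its nearest start site, had 89.4, 90.3, 27.1 and 33.0% in young mice. Its values in mid-aged mice were 71.5, 45.0, 62.2 and 71.2%, over 9 members (chr11:121014920). The gene 3110070M22Rik had 11.9, 4.63, 63.2 and 5.05% in young and 39.2, 22.6, 25.2 and 15.4% in mid-aged mice over 14 members (chr13:119488001-119488169, median of 130 and 295 reads). The pair of young mice that was high at Fam32a (1 and 3) was not the pair that was high at Gm11774 (1 and 2). These were the 3 blocks of 5 or more members with the largest pooled SD, where the median over such blocks was 6.24 points. Over single members the median SD was 6.47 points in mid-aged and 10.9 points in young mice, and the young libraries also had fewer reads.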

How the data were processed

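RRBS of hepatocytes from 4 mid-aged and 4 young female mice was analysed. As deposited by the authors, each library has 1 entry per strand and CpG (build mm10) with 2 values, the methylation in percent and the number of reads behind it, which are counts with no further normalization. Tools listed in the submitters' processing notes include BWA 0.6.2, Trim Galore 0.4.2, Picard 1.115, SAMtools 1.3 and FastQC. How methylation was called is not given in these sources. Percent times coverage gave whole methylated reads for every entry, within the rounding of the percent to 2 decimals, the strands were summed, and 99.992% of positions were CG in GRCm38. No pair of libraries shared over 0.973% of counts. RRBS reads share their ends, so PCR duplicates cannot be removed by position and reads are not all independent molecules.

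Members and gene lists were chosen with earlier results of these data known. Means of classes were compared by two-sided exact permutation tests over mice. Single CpGs were tested by a quasi-binomial model (F test, dispersion moderated by limma and at least 1, CpGs of dispersion 0 left out of the moderation) and blocks by limma with a trend, each with Benjamini-Hochberg adjustment over all features. Named blocks were those called with 5 or more members (the 10 with the largest rise and fall), the 5 with the most members, up to 3 with the most members per gene list, and the 3 most and 3 least variable of 5 or more members. Others are named as chosen after their values were seen. Genes and parts come from GENCODE vM21 (1 transcript per gene), and 1 of 35 hepatocyte symbols was not matched. Alternatives covered the coverage minimum, bounds, density, depth, weighting, scale, test, block length, each mouse and the replicate number. Python 3.11.15, numpy 2.4.6, scipy 1.17.1, pandas 2.3.3, matplotlib 3.10.9, pysam 0.24.0, R 4.3.3 and limma 3.58.1 were used.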

Additional observations from a re-analysis of the deposited data

Results flagged for a closer look

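94 groups of 4 mice were examined for 1 mouse far from the others of its age (3 comparisons of class means and 44 named blocks, each in both ages), and 7 had such a mouse. Chance flags about 1 in 20 groups. Mid-aged mouse 1 was at 73.1% in the Gnas block, where the other mid-aged mice had 62.9 to 63.6%, and at 61.5% in the Igf2r block, where the others had 47.9 to 49.3%. Mid-aged mouse 3 was at 52.0% at Fam32a, against 24.6 to 27.9%. Young mouse 3 was at 63.2% at 3110070M22Rik, against 4.63 to 11.9%, and at 33.4% at Zrsr1, against 46.2 to 47.8%. Young mouse 4 was at 42.8% at Usp49, against 37.2 to 38.0%, and mid-aged mouse 2 at 70.2% in the Cyp26c1 block of 9 members, against 79.3 to 80.8%.

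The rule left out the X chromosome, whose data gave a further signal. Of 9448 dense CpGs tested there, 6418 (67.9%) had a mean of 20 to 80%, where the share was 3.49% on chromosomes 1 to 19. These mice were female, and in females 1 of the X chromosomes is inactivated in each cell. These X-linked CpGs averaged 36.7% ± 1.28 in the mid-aged and 38.0% ± 1.56 in the young group (SD, n = 4 each), and the ages overlapped.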

How the results depend on the processing

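The differences of class means kept their sign in every alternative tried. Without 1 mouse in turn, the members' difference was 1.93 to 3.18 points, that of dense minus sparse 1.83 to 2.87 and that of dense intermediate minus dense low 1.70 to 2.93. In this order, they were 2.67, 2.52 and 2.42 points with 10 or more reads in every mouse and 3.25, 2.98 and 3.01 points with a density of 12 or more, and then passed the exact test (adjusted p = 0.0286, the smallest it can give). With all reads of a class pooled they were 1.84, 2.31 and 1.65 points (adjusted p = 0.143, 0.0857 and 0.143 by the exact test), and with means of 30 to 70% the adjusted p was 0.114 for each. With libraries thinned to the smallest, the first 2 were 2.38 and 2.10 points and passed. Blocks called higher were 12 with 10 reads, 1 with means of 30 to 70%, 4 after thinning and 26 on the logit scale, and 0 without any 1 mouse. Blocks called lower were 3 on the logit scale and 1 for blocks of 5 or more CpGs. CpGs called lower were 31 after thinning. With limma on M values 11 CpGs were called higher and 1 lower, and without 1 mouse in turn 196 to 445 were higher and 19 to 87 lower. The cause of these shifts was not tested.

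No label says whether the replicate numbers pair the mice. Same-numbered mice correlated with r of 0.0171 to 0.0422 over member blocks, where all pairs of a mid-aged and a young mouse ran from -0.0906 to 0.0774. Values this close to each other cannot decide whether the mice were paired. With the replicate block, 0 members were called higher and 0 lower by the quasi-binomial test (1465 at an unadjusted p under 0.05) and limma called 0 blocks higher and 0 lower (152 at an unadjusted p under 0.05). The paired exact test of the class means cannot go below 0.125. The 3 called blocks among the named ones (Mapk15, Cyp26c1 and C1ql3) kept their sign and size in all 10 alternatives, but each lost its call by limma in 9 of them, keeping it on the logit scale. There, 6 other named blocks were called. Depth differed with age, and young mouse 1 had the fewest reads.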
